A study of Mus musculus with 10 samples.

Results

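The genes described are Trp53, which encodes the tumor suppressor p53, and 7 genes of its pathway, namely Cdkn1a, Mdm2, Ccng1, Zmat3, Sesn1, Gdf15 and Cdkn2a. These 8 genes were taken by name from a table of 21959 genes measured in 10 mouse tumors. The choice applied no threshold to expression, but it was made with earlier results of these data known. The tumors grew from 4T1, a carcinoma line derived from a BALB/c mouse mammary tumor, placed under the skin of the abdomen of female BALB/c mice aged 5 to 6 weeks. Mice of group E (n = 5) could run voluntarily and mice of group NE (n = 5) received no intervention, and the tumors of both groups were collected at day 21. Both groups therefore carried the same transplanted line. The study's methods name access to exercise as the difference between them, while the sample titles give only E or NE and a number. Each tumor was sequenced whole, so its RNA is a mixture from 4T1 cells and from the cells of the mouse that had entered the tumor. In such bulk samples fewer cells of a type and less RNA per cell cannot be told apart.

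p53 is a transcription factor that is held at a low level by Mdm2, the ubiquitin ligase that marks it for degradation, and that accumulates when DNA is damaged. It then switches on genes for cell cycle arrest, DNA repair and cell death, and also Mdm2 itself, which closes a feedback loop. 4T1 cells are known to lack functional p53, whereas the macrophages, fibroblasts, vessels and other cells of the host carry an intact gene. The data therefore address whether RNA of Trp53 and of its targets followed genes of host cells over the tumors. Csf1r, the receptor for colony stimulating factor 1 on macrophages, and Col1a1, the main chain of type I collagen made by fibroblasts, stood for the host. The RNA level of Trp53 is not a measure of p53 activity, since the protein is regulated mainly by its stability.

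The total read count was 15045613 to 20646763 in E and 18706032 to 23092251 in NE. Tumors NE1 and NE4 stood apart in their host RNA. NE1 had the lowest summed level of the 10 macrophage markers (1252 CPM, the count scaled by TMM to a common library total, against up to 4347 in NE4) and of the 12 skeletal muscle markers (6.71 CPM), while NE4 had the highest muscle level (32080 CPM). Of the 12 epithelial markers fixed for the carcinoma cells, whose sum lay between 38.0 and 70.5 CPM, 6 were too low to test. Cldn3 had at most 2 reads and Epcam, a defining marker, 10 to 66 reads in a tumor, so the carcinoma label rests on few epithelial transcripts. All 4 Y-linked genes that were checked had reads in every tumor, although the study's methods name female mice. Ddx3y had 108 to 564 reads a tumor, Eif2s3y 92 to 405, Kdm5d 57 to 267 and Uty 37 to 144. The source of these reads was not tested, and the cell line and the sex of the mice are given here as the methods state them.

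p53 binds DNA through pairs of a 10-letter motif, called the p53 decamer here. The RefSeq promoter windows (GRCm38.p6, 250 bases before to 50 after a gene's start) were searched for the decamer, a sequence that reads the same on both strands, to show what the promoters of these genes share apart from their names. Windows were found for 7 of the 8 genes, Zmat3 being the exception, and 5 of the 7 held a decamer. Of all 27025 genes with a window, 9.55% held one in any window, and 0.359% of the 32851 windows held 2 or more. The stretches are given on the strand of the gene. Exact matches to the decamer are in capitals, and near matches were not marked.
Cdkn1a, chr17:29090881-29090962, plus strand: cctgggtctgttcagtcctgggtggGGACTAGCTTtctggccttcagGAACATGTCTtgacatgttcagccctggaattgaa
Mdm2, chr10:117710900-117710979, minus strand: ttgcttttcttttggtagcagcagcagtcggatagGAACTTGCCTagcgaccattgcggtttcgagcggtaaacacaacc
Ccng1, chr11:40755427-40755506, minus strand: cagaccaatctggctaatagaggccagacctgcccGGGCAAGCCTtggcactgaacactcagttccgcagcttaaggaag
Trp53, chr11:69580249-69580328, plus strand: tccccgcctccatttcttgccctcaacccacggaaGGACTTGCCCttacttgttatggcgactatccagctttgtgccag
Sesn1, chr10:41887231-41887310, plus strand: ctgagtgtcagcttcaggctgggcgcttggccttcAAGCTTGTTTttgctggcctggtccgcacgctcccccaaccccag
Of the 2 Cdkn1a windows, 1 held 2 decamers, which began 73 and 51 bases before the start, and the other held none. Mdm2, Ccng1 and Trp53 had 1 window each, with 1 decamer. Of the 2 Sesn1 windows, 1 held 1 decamer. That window belongs to a start inside the gene, which spans chr10:41809935-41908424. Both windows of Gdf15 and both of Cdkn2a held none, which says only that these letters are not in these windows. A match is a description of the sequence and not evidence of binding.

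The 8 genes spanned a wide range of levels. FPKM divides by a length deposited for each gene. On that scale Ccng1 (cyclin G1, a target that takes part in feedback on p53) was the most abundant at 73.9 ± 24.3 (SD, n = 10). Trp53 followed at 35.8 ± 3.35 and Cdkn1a, which encodes the cyclin-dependent kinase inhibitor p21, at 33.4 ± 6.52. These neighbours did not differ beyond their spread, since Trp53 was the higher in 6 of 10 tumors. Mdm2 was at 24.9 ± 1.67 FPKM and lay below Cdkn1a in 9 of 10 tumors. Sesn1 (sestrin 1, which restrains growth signalling under stress) was at 15.0 ± 3.19, Zmat3 (an RNA-binding zinc finger protein) at 8.21 ± 0.859 and Gdf15 (a secreted stress cytokine) at 1.86 ± 0.788 FPKM. Cdkn2a, whose locus encodes p16 and the Mdm2 inhibitor p19Arf, was lowest at 0.135 ± 0.097 FPKM. From Mdm2 downward each gene exceeded the next one in all 10 tumors, as Ccng1 exceeded Trp53. These ranks hold for the deposited lengths, which were 3553 bases for Cdkn1a, 4045 for Trp53 and 3512 for Ccng1. The longest transcripts of these genes are 2080, 3275 and 3512 bases, so the order of genes could differ with another length.

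Trp53 (chr11:69580359-69591873, plus strand, GRCm38) changed little from tumor to tumor, as did many genes of its level. Its level was 147.0, 148.5, 147.9, 145.7 and 146.7 CPM in E1 to E5, and 165.3, 148.1, 139.0, 118.3 and 140.1 CPM in NE1 to NE5. The E tumors lay within a 1.02-fold range, a coefficient of variation of 0.738% that was below the 1.91% that counting alone gives at this depth, and they fell inside the range of the NE tumors. The highest Trp53 level was in NE1, the tumor with the least macrophage and muscle RNA. The lowest was in NE4, which had the most by the summed levels of the markers. Csf1r itself was highest in E5, at 308.4 CPM against 281.2 CPM in NE4, and Trp53 in E5 was at 146.7 CPM. Whether host RNA set the Trp53 level in these tumors was not tested. The whole range was 1.40-fold, and 23.7% of the tested genes, and 46% of the 1000 genes nearest to it in level, had a smaller standard deviation of log2(CPM + 1). Trp53 was thus near the middle of genes of its abundance. Of the 3226 possible 50-base stretches of Trp53 transcripts, 2.94% also occur in transcripts of other genes, nearly all in the pseudogene Trp53-ps, so a small share of its reads could have been split.

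The host genes varied far more. Csf1r was at 242, 210.4, 164.5, 176 and 308 CPM in E1 to E5 and at 62.4, 210.9, 225, 281 and 189 CPM in NE1 to NE5, a 4.95-fold range set by the low value of NE1. Col1a1 was at 585, 848, 335, 1032 and 3818 CPM in E and at 99.9, 374, 404, 924 and 865 CPM in NE, which is a 38.2-fold range. Within E alone, where Trp53 moved by 1.02-fold, Csf1r moved by 1.87-fold and Col1a1 by 11.4-fold. The host genes were not independent of each other, with a slope of Col1a1 on Csf1r of 1.90 ± 0.44 (SE, log2 per log2 unit; edgeR adjusted p = 0.021).

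**Figure D1:**
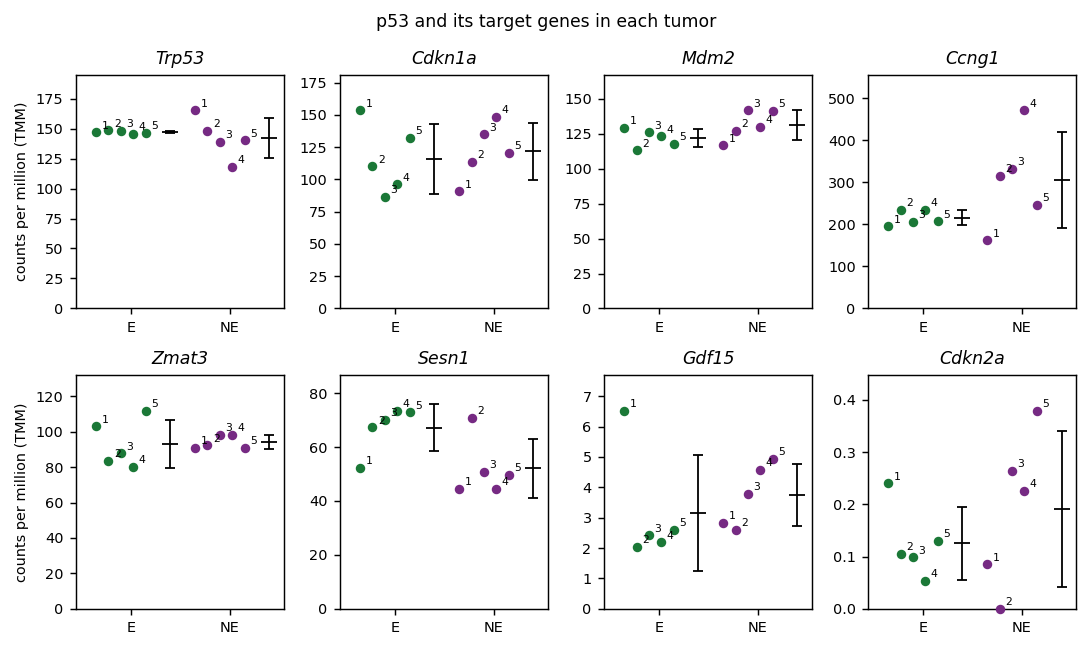
Level of each of the 8 genes in the 5 E tumors and 5 NE tumors in CPM with TMM scaling; digits are replicate numbers and the black bars give mean ± SD. The y axes start at 0. Trp53 in E lies between 145.7 and 148.5 CPM, Ccng1 reaches 471 CPM in NE4, and in every panel the groups overlap.

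To ask whether a gene followed a host gene, its count was fitted against log2(CPM + 1) of that gene over the 10 tumors with edgeR's quasi-likelihood test and called at a Benjamini-Hochberg adjusted p of at most 0.05 over all tested genes. A slope of 1 means a change in proportion to the host gene. The slope of Trp53 on Csf1r was -0.12 ± 0.050 (95% interval -0.226 to -0.0058), opposite in sign to the macrophage genes, and it did not pass (edgeR adjusted p = 0.198, unadjusted p = 0.0408). The slope of Trp53 on Col1a1 was -0.034 ± 0.026 (95% interval -0.091 to 0.024; edgeR adjusted p = 0.589). Both intervals lay far below 1. The 9 other macrophage markers were all called with Csf1r, with a median slope of 0.813, and 8 of the 9 other fibroblast markers with Col1a1, with a median slope of 0.619. Csf1r was not specific to macrophage RNA in these tumors, since all 12 skeletal muscle markers were also called with it and moved more steeply (median slope 6.54). So were 6 of 10 fibroblast markers, 3 of 8 T and NK cell markers and 2 of 6 tested neutrophil markers, and their part in the slopes on Csf1r cannot be told apart from that of macrophages by the slope alone. Over the tumors Pearson's r of Trp53 with Csf1r was -0.67 (permutation p = 0.0966, 0.367 after adjustment over all tested genes) and Spearman's rho -0.49 (permutation p = 0.155). Without E5 and NE1, the tumors farthest from the median of Csf1r, r was -0.67. With Col1a1, r was -0.43 (permutation p = 0.216, adjusted 0.578), rho -0.58 (permutation p = 0.0872), and r without E5 and NE1 -0.37. These are among 28 relations computed. When NE1 and NE4 were left out together, a choice made after the data had been seen, the Trp53 slopes were 0.039 on Csf1r and 0.014 on Col1a1, so the negative sign rested on these 2 tumors.

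**Figure D2:**
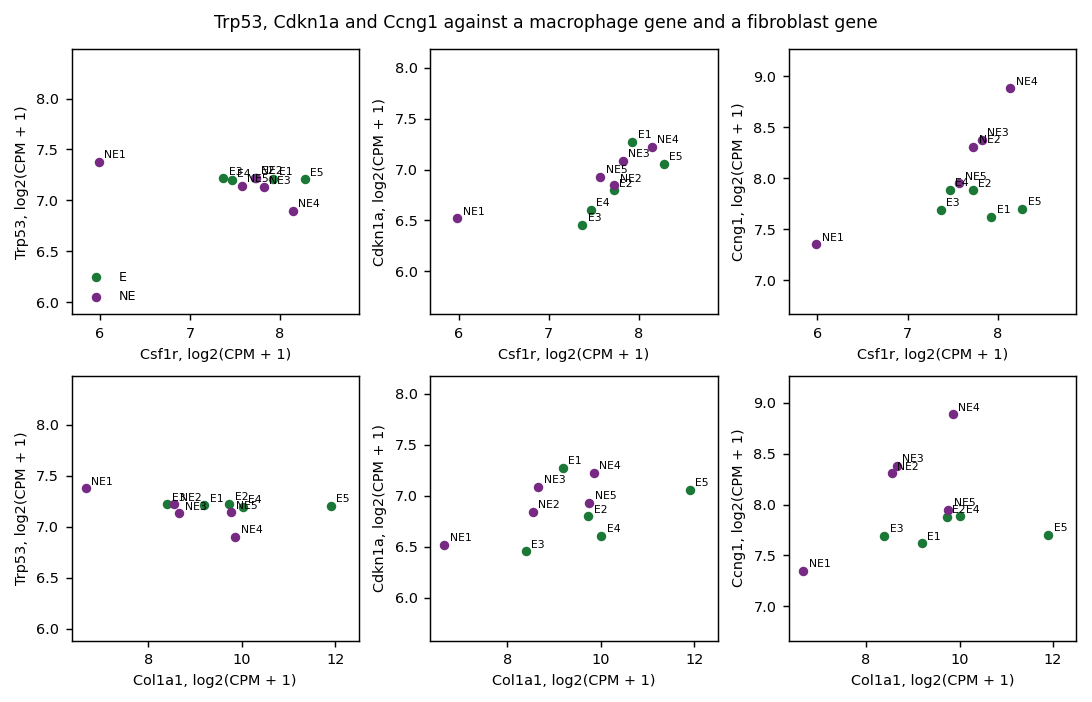
Trp53, Cdkn1a and Ccng1 (y axes, each spanning the same number of log2 units) against Csf1r (upper row) and Col1a1 (lower row), all as log2(CPM + 1); each point is 1 of the 10 tumors, green for E and purple for NE. Trp53 lies nearly level while Col1a1 changes by 38.2-fold, Cdkn1a is lowest in E3 and NE1, and Ccng1 is highest in NE4.

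No member was called with either host gene. With Csf1r, 0 of 7 tested members passed, where 1305 of 13516 genes (9.66%) did. Their slopes had a median of 0.156 (all tested genes 0.00079), 6 were positive, and at an unadjusted p under 0.05 there were 2 positive members, Cdkn1a and Ccng1, and 1 negative, Trp53, beside 3002 genes (22.2%) of all those tested. With Col1a1, 0 of 7 passed, where 411 genes (3.04%) did, and none of the members had an unadjusted p under 0.05, beside 16.2% of all tested genes. The member slopes on Col1a1 lay between -0.034 and 0.10 with a median of 0.042. The count with Csf1r depended on the fit, being 1 with DESeq2 (Cdkn1a) and 2 with the group as a covariate in edgeR (Cdkn1a and Ccng1).

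Cdkn1a (chr17:29090976-29100727) came nearest to following Csf1r among the members. It was at 153.7, 110.2, 86.7, 96.4 and 132 CPM in E1 to E5 and at 90.8, 114, 135, 149 and 121 CPM in NE1 to NE5. Values were low in E3, E4 and NE1, while E1 had the highest Cdkn1a at a Csf1r level below those of E5 and NE4. E3, E4 and NE1 were the lowest tumors for both genes. The slope was 0.34 ± 0.10 (95% interval 0.113 to 0.558; edgeR adjusted p = 0.063), r was 0.72 (permutation p = 0.004, adjusted 0.0645) and rho 0.87 (permutation p = 0.0019, adjusted 0.0713). Without E5 and NE1 r was 0.91. The call was made with DESeq2 (adjusted p = 0.0206) and with the group as a covariate in edgeR (adjusted p = 0.041), and without NE1 the slope was 0.78 (edgeR adjusted p = 0.067). Over all 20 alternatives the slope ran from 0.26 to 0.78 and the adjusted p (edgeR, DESeq2 or limma) from 0.0206 to 0.497. On the mean log2(CPM + 1) of the 12 skeletal muscle markers, Cdkn1a had a slope of 0.066 ± 0.025 (edgeR unadjusted p = 0.024, adjusted p = 0.154). On Col1a1 the slope was 0.10 ± 0.063 (edgeR adjusted p = 0.478). Cdkn1a shares 273 exon bases with an unnamed transcript on the opposite strand, AC167363.2, and no use of strand in counting is stated.

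Ccng1 (chr11:40748552-40755311, minus strand) varied most in proportion among the abundant members and moved with muscle RNA. It was at 196, 235, 206, 235 and 207 CPM in E1 to E5 and at 162, 315, 332, 471 and 246 CPM in NE1 to NE5. The E tumors were close together, while NE1 lay below and NE2, NE3, NE4 and NE5 above all of them. On the skeletal muscle score, the mean log2(CPM + 1) of 12 muscle genes such as Ckm and Acta1, its slope was 0.13 ± 0.029 (edgeR adjusted p = 0.028). The summed muscle level was 329 to 4435 CPM in E and 6.71 to 32080 CPM in NE, and its part in the Ccng1 level was not tested further. Myh2, Myh4 and Pvalb, 3 of the 12 muscle genes, had 0 reads in NE1. Ccng1 was the single member of 7 called with this score, where 702 of 13505 genes (5.2%) were. The call was lost without NE1 (edgeR adjusted p = 0.072) and without NE4 (0.469), and r of 0.78 (permutation p = 0.00867, adjusted 0.135; rho 0.56, permutation p = 0.0954) fell to 0.23 without both. The slope of Ccng1 on Csf1r was 0.45 ± 0.19 (edgeR adjusted p = 0.193) and became -0.047 once the muscle score was a covariate. With the group as a covariate instead, it was 0.53 and was called (edgeR adjusted p = 0.036). Trp53 had a slope of -0.032 ± 0.010 on the muscle score (edgeR adjusted p = 0.103; r = -0.80, permutation p = 0.0158, adjusted 0.159; rho -0.35, permutation p = 0.329), and r was 0.26 without NE1 and NE4.

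**Figure D3:**
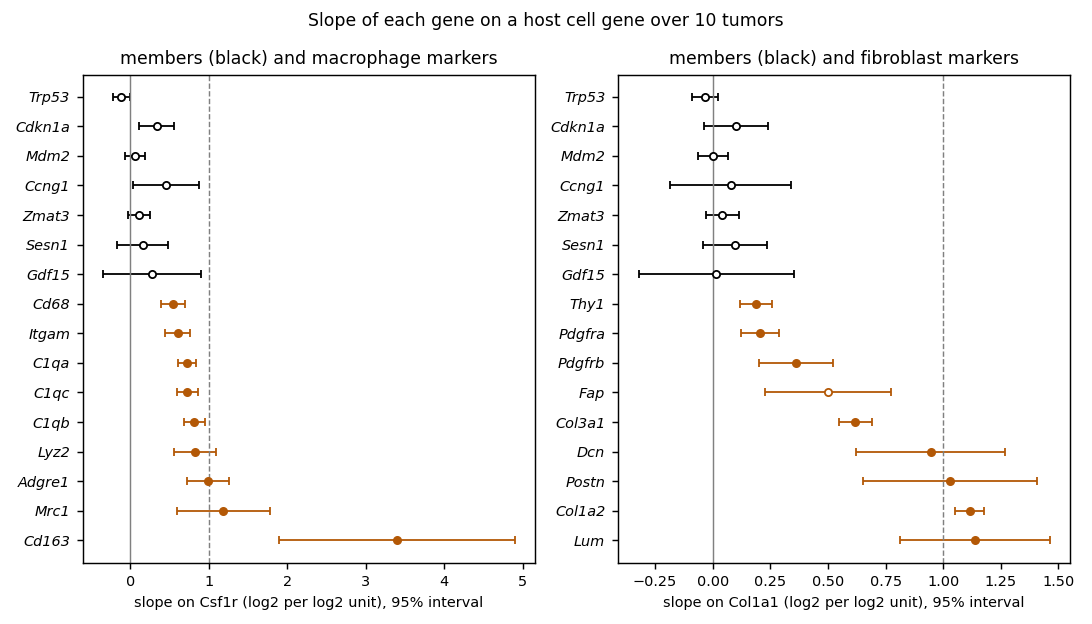
Slopes of the 7 tested members (black) on Csf1r (left) and Col1a1 (right), beside the other macrophage or fibroblast markers (brown), in log2 units per log2 unit with 95% intervals; filled points were called at an adjusted p of at most 0.05, the solid line is 0 and the dashed line 1. All 9 macrophage markers and 8 of 9 fibroblast markers are filled, and no member is.

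Mdm2 (chr10:117688875-117710758, minus strand) and Zmat3 (chr3:32334792-32366014, minus strand) stayed within narrow ranges. Mdm2 was at 129, 113, 126, 123 and 118 CPM in E1 to E5 and at 117, 127, 142, 129.9 and 141 CPM in NE1 to NE5, a 1.25-fold range, with NE3 and NE5 highest. Its slopes were 0.057 ± 0.060 on Csf1r (edgeR adjusted p = 0.664) and -0.00036 ± 0.029 on Col1a1 (edgeR adjusted p = 0.997). Zmat3 lay between 80.3 CPM in E4 and 112 CPM in E5, a 1.39-fold range, and within NE between 91.1 and 98.4 CPM. Its slope on Csf1r was 0.11 ± 0.066 (edgeR adjusted p = 0.382), with r of 0.45 (permutation p = 0.195) and rho of 0.82 (permutation p = 0.0057, adjusted 0.109). r was 0.73 without E5 and NE1. A smaller spread of log2(CPM + 1) than that of Mdm2 was found in 17.8% of tested genes and in 35.4% of the 1000 genes nearest in level. For Zmat3 these shares were 34.1% and 56.6%, so its spread was not small for its level.

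Sesn1 (chr10:41809935-41908424) had the largest E against NE difference relative to its error. It was at 52.3, 67.4, 70.0, 73.6 and 72.8 CPM in E1 to E5 and at 44.5, 70.9, 50.9, 44.6 and 49.6 CPM in NE1 to NE5. All 5 E tumors lay above 4 of the 5 NE tumors, E1 by the least, and NE2 lay among the E tumors, so the groups overlapped. The difference was 0.37 ± 0.14 on the log2 scale (1.29-fold; edgeR unadjusted p = 0.024, adjusted p = 0.897), and the exact two-sided permutation test over the tumors gave p = 0.0397, where 5 against 5 allows 0.00794 at the smallest. Over the 7 tested members this is 1 raw p under 0.05 by either test, where 4.86% of all tested genes had one by edgeR. Gdf15 (chr8:70629393-70632456, minus strand) was scarce, at 6.53, 2.04, 2.42, 2.18 and 2.60 CPM in E1 to E5 and 2.82, 2.60, 3.78, 4.57 and 4.93 CPM in NE1 to NE5. E1 was highest of all. The other E tumors lay at or below the level of NE2, the lowest NE tumor. E5 (2.595 CPM, 40 reads) and NE2 (2.604 CPM, 48 reads) cannot be ranked, since counting error alone was 14.3% in E and 11.6% in NE. Neither gene was called with Csf1r (slopes 0.16 ± 0.15 and 0.28 ± 0.28; edgeR adjusted p = 0.623 and 0.655) or Col1a1 (slopes 0.096 ± 0.063 and 0.015 ± 0.15; edgeR adjusted p = 0.512 and 0.982).

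Cdkn2a (chr4:89274471-89294653, minus strand) was barely detected and failed the filter on low counts, so it was not tested. It had 5, 2, 2, 1 and 2 reads in E1 to E5 and 2, 0, 6, 5 and 8 reads in NE1 to NE5, 33 reads in all. Scaled by the library total without TMM, the highest level, in NE5, was 0.374 CPM (exact 95% interval 0.162 to 0.737, counting error only). By the same kind of interval the 0 reads of NE2 allow up to 0.197 CPM. The exact permutation test between the groups gave p = 0.421. Of the genes next to it, Cdkn2b, which encodes the related inhibitor p15, had 3 to 20 reads and Dmrta1 0 to 4, whereas Mtap, an enzyme of methionine salvage, had 2390 to 4706 reads and a level of 155 to 207 CPM. RNA alone does not show whether the Cdkn2a gene is present.

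Between E and NE, 0 of the 7 tested members passed both limits (2-fold or more, with an adjusted p not above 0.05), and 0 of 13517 genes (0%) were. At an unadjusted p under 0.05 there were 657 genes (4.86%), and with DESeq2 no member was called either. The differences, E minus NE on the log2 scale, were 0.049 ± 0.073 for Trp53 (95% interval -0.113 to 0.212), -0.076 ± 0.17 for Cdkn1a, -0.11 ± 0.066 for Mdm2, -0.51 ± 0.23 for Ccng1, -0.016 ± 0.091 for Zmat3 and -0.25 ± 0.35 for Gdf15, with edgeR adjusted p between 0.897 and 0.987. For Ccng1 the unadjusted p was 0.0525. The exact two-sided permutation p over the tumors was 0.579 for Trp53, 0.675 for Cdkn1a, 0.127 for Mdm2, 0.143 for Ccng1, 0.818 for Zmat3 and 0.397 for Gdf15. The interval of Trp53 excludes a 2-fold change in either direction.

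Against the epithelial score, the mean log2(CPM + 1) of the 12 epithelial markers, 0 of 7 members and 0 of 13511 genes (0%) were called. At an unadjusted p under 0.05 there were 852 genes (6.31%) and 3 of the 7 members, Mdm2, Gdf15 and Cdkn1a, all with positive slopes. Mdm2 had a slope of 0.57 ± 0.14 (edgeR adjusted p = 0.61) and r of 0.86 (permutation p = 0.0013, adjusted 0.576; rho 0.90, permutation p = 0.00091). Gdf15 had a slope of 2.66 ± 0.77 (edgeR unadjusted p = 0.0058, adjusted p = 0.707) and r of 0.77 (permutation p = 0.00863, adjusted 0.743; rho 0.85, permutation p = 0.0031). Cdkn1a had a slope of 1.09 ± 0.44 (edgeR unadjusted p = 0.032, adjusted p = 0.707), and Trp53 one of -0.40 ± 0.19 (edgeR unadjusted p = 0.066, adjusted p = 0.707). Without E2 and NE5, the tumors farthest from the median of the score, r was 0.74 for Mdm2, 0.71 for Gdf15 and 0.85 for Cdkn1a. The score spans few units and rests partly on markers near 0, which limits what it can show. It was highest in NE5 (1.79), whose keratinocyte markers summed to 121 CPM, against at most 2.32 CPM in E. Whether keratinocyte RNA raised the score there was not tested.

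Of the 31 other p53 targets, all of which could be tested, 3 were called with Csf1r (all positive) and 28 were not. The share called is near the 9.66% of all tested genes. The median slope was 0.10. Dram1, a lysosomal membrane protein that promotes autophagy, had a slope of 0.54 ± 0.073 (edgeR adjusted p = 0.0012) and ranged from 31.8 CPM in NE1 to 78.8 CPM in E5. Btg2, an antiproliferative regulator of mRNA decay, had a slope of 0.50 ± 0.097 (edgeR adjusted p = 0.0096), from 21.0 CPM in NE1 to 46.0 CPM in E5. Pmaip1, the BH3-only death protein Noxa, had a slope of 0.73 ± 0.16 (edgeR adjusted p = 0.019), from 2.86 CPM in NE1 to 10.4 CPM in NE3. Each of these genes was lowest in NE1, the tumor lowest in Csf1r. Without NE1 the Dram1 slope was 0.90 and remained called (edgeR adjusted p = 0.0156), while Btg2 (0.70, edgeR adjusted p = 0.0876) and Pmaip1 (0.29, edgeR adjusted p = 0.557) were not. With Col1a1, 2 of 31 were called, Dram1 (slope 0.23 ± 0.047, edgeR adjusted p = 0.023) and Btg2 (0.22 ± 0.051, edgeR adjusted p = 0.046), and without NE1, E3 or E5 neither was. Among the 28 not called with Csf1r, Bax, an activator of mitochondrial cell death, had a slope of 0.11 ± 0.075 (edgeR adjusted p = 0.44). Bbc3, which encodes Puma, had one of -0.058 ± 0.10 (edgeR adjusted p = 0.811). The shares called among the targets stand beside 9.66% of all tested genes for Csf1r and 3.04% for Col1a1. With the muscle score, where 5.2% of all tested genes were called, 3 of 31 were, Tigar, Ak1 and Eda2r, each highest in NE4, and 0 without NE4. Between E and NE none of the 31 was called. An unadjusted p under 0.05 was found for 4.86% of all tested genes and for 2 of the 31. These were Dcxr (E minus NE 0.46 ± 0.16, log2) and Perp (-2.42 ± 0.92, log2), with edgeR adjusted p of 0.897 for both. Perp reached 29.6 CPM in NE5, the tumor whose keratinocyte markers summed to 121 CPM.

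**Figure D4:**
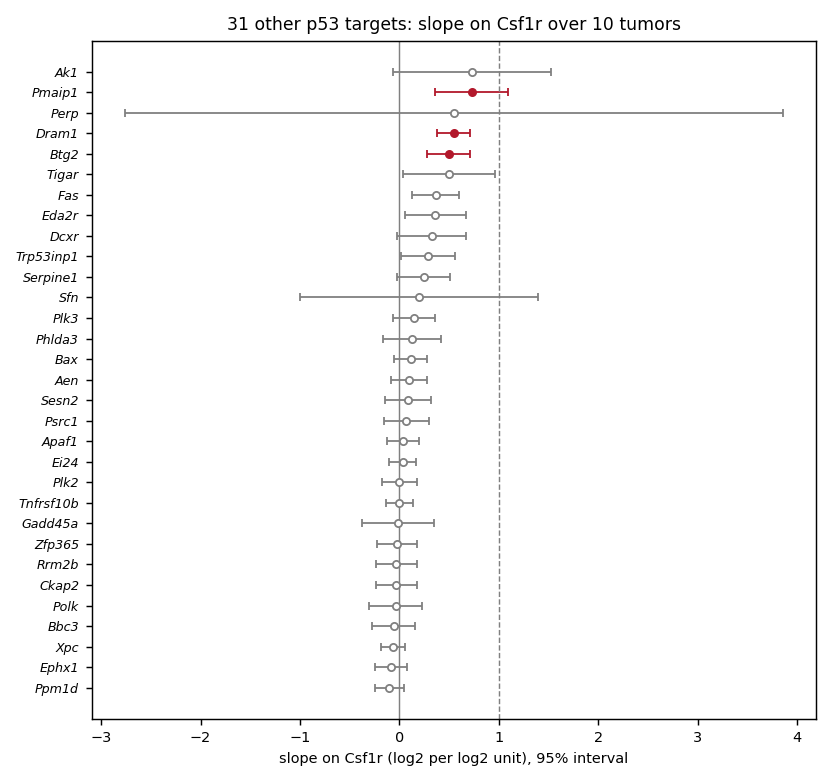
Slope of each of the 31 other p53 targets on Csf1r over the 10 tumors, in log2 units per log2 unit with 95% intervals; red filled points (Pmaip1, Dram1 and Btg2) were called at an adjusted p of at most 0.05, the solid line is 0 and the dashed line 1. Most intervals include 0 and lie below 1.

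Among 15 regulators of p53, 1 was called with Csf1r, where 9.66% of all tested genes were, and none with Col1a1. It was Hipk2, a kinase that phosphorylates p53, with a slope of 1.01 ± 0.25 (edgeR adjusted p = 0.028; 0.0876 without NE1 and 0.051 without E3). Hipk2 was also called with the muscle score (slope 0.23 ± 0.041, edgeR adjusted p = 0.0065) and was highest in NE4, at 26.9 CPM. Like Trp53, 10 of the 15 regulators had a negative slope on Csf1r. Mdm4, the partner of Mdm2 in holding p53 in check, was 1 of these, at -0.14 ± 0.084 (edgeR adjusted p = 0.387). Its lowest level, 137 CPM, was in NE4 and its highest, 213.5 CPM, in E3. Of the p53 relatives, Trp63 had 15 to 172 reads with its highest level in NE5, and Trp73 had 0 to 5. None of the 4 tested Cdk inhibitor genes outside the members was called with Csf1r or Col1a1, and Cdkn1b, which encodes p27, had a slope on Csf1r of -0.13 ± 0.057 (edgeR adjusted p = 0.212). Of 9 genes of the integrated stress response, a pathway that also induces Gdf15 and Sesn2, 1 was called with Csf1r, a share near that of all tested genes. It was Vldlr, a lipoprotein receptor (slope 3.77 ± 0.999, edgeR adjusted p = 0.038), which went from 0.299 CPM in NE1 to 75.4 CPM in NE4 and was also called with the muscle score. Its call with Csf1r was lost without any 1 of E3, E4 or the 5 NE tumors (edgeR adjusted p 0.053 to 0.11).

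The genes whose log2(CPM + 1) pattern over the 10 tumors was most like each member were named by Pearson's r as a description. For Trp53 they were Arhgef25 (0.99), Cilk1 (0.99) and Zcchc14 (0.99). For Cdkn1a they were Grk2 (0.96), Krt80 (0.96) and Slc11a1 (0.95), for Ccng1 Sgcd (0.96), Ndnf and Cab39, and for Zmat3 Tprn (0.97), Ralgds and Rab11fip1. For Mdm2 they were Magohb, Foxn2 and Atg3, for Sesn1 Caps2 (0.93), Bmf and Slitrk5, and for Gdf15 Mrto4 (0.97), Dcun1d3 and Dusp9. The highest r out of all tested genes over 10 tumors is large by selection. No member was among the 3 closest genes of another member.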

How the data were processed

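The authors extracted RNA from 10 whole tumors, sequenced paired-end libraries and deposited 1 table with a raw read count and an FPKM value per gene and tumor. Their methods name Hisat2 2.0 and Stringtie 1.3.0 and, as the assembly, Rnor 6.0 of the rat, whereas the gene identifiers of the table are mouse ones, so the build behind the counts is unresolved. The deposited FPKM values could be rebuilt from the counts, a length per gene and the library total (largest relative deviation 3.77e-14). Positions are from GENCODE M21 (GRCm38) and promoters from RefSeq (GRCm38.p6). Places of genes were matched by identifier, not by the coordinates of the table.

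Counts were analysed with edgeR 4.0.16 in R 4.3.3 (TMM scaling, filterByExpr by group, quasi-likelihood test, Benjamini-Hochberg adjustment over all tested genes), which left 13517 genes and 7 of the 8 members. E against NE was called from a 2-fold change upward with an adjusted p not above 0.05, and slopes on log2(CPM + 1) of Csf1r, Col1a1 and 2 marker scores at an adjusted p of at most 0.05. Correlations used 100000 permutations (scipy 1.17.1) and single genes were also compared by an exact two-sided permutation test. Fits were tested on simulated data. Alternatives were library size scaling, DESeq2 1.42.0, no filter, limma-trend (3.58.1) on log2(FPKM + 1), the replicate number as a block, added covariates, marker scores in place of the host genes, and leaving out each tumor. Leaving out NE1 and NE4 together was added after the data had been seen. Genes were named if they were members, the 3 genes most like a member, or list genes called with Csf1r or Col1a1, at most 6 a list. Mdm4, Bax, Bbc3, Cdkn1b, Dcxr, Perp, Trp63, Trp73, the genes called with the muscle score alone and the neighbours of Cdkn2a were named beyond this rule after their values had been seen. The members and lists were chosen with earlier results of these data known. The study design gives 5 mice per group, so each tumor was taken as 1 mouse. Intervals of single counts cover counting error only.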

Additional observations from a re-analysis of the deposited data

Results flagged for a closer look

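In 3 of 20 groups of 5 tumors, the most extreme tumor stood apart from the others by more than Dixon's 95% limit, where chance gives about 1. Sesn1 in NE2 was at 70.9 CPM while the other NE tumors were at 44.5 to 50.9 CPM. Gdf15 in E1 was at 6.53 CPM while the other E tumors were at 2.04 to 2.60 CPM. Col1a1 in E5 was at 3818 CPM while the other E tumors were at 335 to 1032 CPM.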

How the results depend on the processing

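No Trp53 result was called under any alternative run, and none of the 7 tested members was called between E and NE or with Col1a1. The Trp53 slope on Csf1r ranged from -0.16 to 0.039 (edgeR, DESeq2 or limma adjusted p 0.0998 to 0.937) and was negative in all 20 alternatives but the joint loss of NE1 and NE4. Members called with Csf1r numbered 1 with DESeq2 and 2 with the group as a covariate. Genes called with Csf1r (1305) became 819 with limma-trend, 631 with the replicate block, 483 with the muscle score, 228 with Col1a1 as a covariate, 89 without NE1 and NE4, and 203 to 1558 when 1 tumor was left out. Genes called with Col1a1 (411) became 1305 with DESeq2, 6 with the replicate block, 629 with the fibroblast score, 43 with Csf1r as a covariate, and 163 to 601 when 1 tumor was left out. Genes called with the muscle score became 192 to 1211 and members 0 to 1 when 1 tumor was left out. Single tumors moved these counts by over 1.5 times, namely NE1 for Csf1r (203), NE1, E5, E3 and NE2 for Col1a1 (163, 174, 272 and 270), and NE4 and E5 for the muscle score (192 and 1211). Other p53 targets called with Csf1r (3) became 1 with the muscle score, 5 with the group, 0 with Col1a1 as a covariate, 1 without NE1 and NE4, and 1 to 5 when 1 tumor was left out. Those called with Col1a1 (2) became 1 with no filter, 0 with the replicate block, 1 with the group, 0 with Csf1r, 0 without NE1 and NE4, and 0 to 2 when 1 tumor was left out, and those with the muscle score 0 to 6.

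Values that changed sign were all short of the threshold, and the cause was not tested. For E minus NE (log2), Zmat3 was 0.017 by library size, 0.0061 with limma-trend and 0.013 without NE1 and NE4, and Gdf15 was 0.10 with depth as a covariate. With 1 tumor left out, the range was -0.0060 to 0.11 for Trp53, -0.19 to 0.016 for Cdkn1a and -0.091 to 0.034 for Zmat3. For the slope on Csf1r, leaving out NE1 and NE4 gave 0.039 for Trp53, -0.049 for Mdm2, -0.067 for Ccng1 and -0.012 for Sesn1. Ccng1 was -0.047 with the muscle score and Sesn1 -0.036 with Col1a1 as covariates, and with 1 tumor left out the range was -0.036 to 0.088 for Mdm2 and -0.24 to 0.24 for Sesn1. For the slope on Col1a1, Csf1r as a covariate gave 0.026 for Trp53, -0.069 for Cdkn1a, -0.23 for Ccng1 and -0.25 for Gdf15, and leaving out NE1 and NE4 gave 0.014 for Trp53, -0.11 for Ccng1 and -0.090 for Gdf15. Mdm2 was 0.0032 with DESeq2, 0.022 with the group and 0.010 with the fibroblast score. The muscle score as a covariate gave -0.050 for Ccng1 and -0.029 for Gdf15, the replicate block -0.023 for Ccng1, and Gdf15 was -0.00066 with limma-trend and -0.0029 with the fibroblast score. With 1 tumor left out the ranges were -0.041 to 0.031 for Mdm2, -0.071 to 0.24 for Ccng1, -0.010 to 0.060 for Zmat3 and -0.080 to 0.14 for Gdf15. For the muscle score they were -0.0055 to 0.015 for Mdm2 and -0.055 to 0.056 for Sesn1.

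The paper describes the sequenced tumors as 5 matched pairs, while its methods describe a random division of the mice into groups. E and NE tumors share replicate numbers, but the sample titles do not say that equal numbers mark a pair. For numbers 1 to 5, r of deviations from the group means was 0.036, -0.16, -0.096, -0.32 and 0.32. These values cannot show whether mice were matched. The main fits took the tumors as unpaired, and the replicate block was the alternative. With the replicate block, 0 members were called between E and NE, with Csf1r and with Col1a1, and the Trp53 slope on Csf1r was -0.10. Depth limits Cdkn2a, with at most 8 reads a tumor.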
